A study of Homo sapiens with 21 samples.

Results

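The 10 genes FOS, FOSB, FOSL1, FOSL2, JUN, JUNB, JUND, EGR1, MYC and CCND1 were followed across PC-9 cells, a human lung adenocarcinoma line with an activating EGFR deletion. They were listed by symbol, and all 10 were found among the 20111 genes of both deposited tables. Poly(A) RNA of 21 libraries was sequenced, 3 biological replicates in each of 7 groups. Untreated parental, EGFR-high and EGFR-low cells were harvested 24 h after seeding. EGFR-high and EGFR-low cells came from 6 rounds of sorting for the 5 to 10% of cells with the highest or lowest EGFR and were maintained by repeated sorting. In a separate experiment, EGFR-high and EGFR-low cells received DMSO or 1 µM vorinostat (SAHA), an inhibitor of histone deacetylases, for 72 h, starting 24 h after seeding. The parental line is not in that experiment. All groups carry the deletion, and each sorted population is a selected pool of 1 line.

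FOS, FOSB, FOSL1 (FRA1) and FOSL2 (FRA2) encode the FOS subunits of AP-1, a dimeric transcription factor, and JUN, JUNB and JUND encode its JUN subunits; FOS proteins bind DNA only paired with a JUN protein, whereas JUN proteins can also pair with each other. Growth factor receptors such as EGFR signal through RAS and ERK to the serum response factor and its partners. These switch on FOS, EGR1 and JUNB within minutes, while FOSL1 and CCND1 follow later or depend on sustained signalling. MYC, paired with MAX, drives genes of ribosome production and metabolism, and CCND1 encodes cyclin D1, the partner of CDK4 and CDK6 that lets cells leave the G1 phase.

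Levels are FPKM, fragments scaled to transcript length and to all mapped fragments, a unit inferred from the values because the tables are named as counts. FPKM summed to 467897 to 592942 in the untreated libraries and 511011 to 582866 in the others. The total number of reads is not known. The ratios between the smallest values of pairs of libraries placed their relative depth between 0.732 and 1.54 of the typical untreated library, and between 0.785 and 1.80 in the other experiment, where EGFR-low DMSO replicate 1 was the deepest. The 2 experiments were deposited separately, so their values are set side by side and no difference between them was tested.

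EGFR mRNA followed the sort. In untreated cells it averaged 49.1 ± 19.6 FPKM (SD, n = 3) in EGFR-low, 224 ± 56.7 in EGFR-high and 208 ± 76.8 in parental cells. In DMSO it averaged 26.8 ± 14.3 FPKM in EGFR-low and 115 ± 34.9 in EGFR-high cells, and under vorinostat 18.0 ± 1.82 and 168 ± 58.3. EGFR-low libraries lay below EGFR-high libraries in all 3 settings. Epithelial markers (EPCAM, KRT7, KRT8, KRT18, KRT19 and CDH1, 6 of 6 found) summed to 1550 to 4050 FPKM in every library. Fibroblast markers (7 of 7 found) summed to 1.02 to 5.88 FPKM, nearly all of it COL1A1, with DCN listed at 0 in every library. Of leukocyte genes, CD68 ranged from 14.5 to 39.3 FPKM. It averaged 19.4 FPKM in EGFR-low against 28.1 in EGFR-high DMSO cells without overlap and was not called (-0.52, adjusted p = 0.0777), but was called lower with the block (0.0432), median-of-ratios scaling (0.0409) and quantile normalization (0.0477). PTPRC, CD3E and ITGAM each stayed under 1 FPKM in every library. Endothelial markers (2 of 3 found, PECAM1 being absent from the tables) summed to 2.23 to 8.30 FPKM, nearly all of it CDH5, with VWF under 0.1. CDH5 averaged 6.87 FPKM in untreated EGFR-low cells, above all EGFR-high (mean 3.46) and parental (mean 3.01) libraries. It was not called (limma adjusted p = 0.103 and 0.0802), but was called higher in both comparisons when replicate numbers entered the fit as blocks (0.0248 and 0.0201).

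In the vorinostat experiment 4 libraries stood apart. The first principal component, with 82.5% of the variance over 12236 genes, separated EGFR-low from EGFR-high cells. EGFR-low DMSO replicate 1 lay at 25.6 on it, against 61.6 to 66.7 for the other EGFR-low libraries. EGFR-high DMSO replicate 3 lay at -26.3, against -67.2 to -59.4 for the other EGFR-high libraries. There were 31 genes with at least 10 FPKM in the other EGFR-high DMSO libraries and at most 0.1 in the other EGFR-low DMSO libraries, limits set after the data were seen. Their median in EGFR-low DMSO replicate 1 was 21.6% of the EGFR-high level, against 0.173 to 0.306% in the other EGFR-low libraries. For the 48 genes with the opposite pattern, the median in EGFR-high DMSO replicate 3 was 24.9% of the EGFR-low level. In the other EGFR-high libraries it was 0.0668 to 0.112%, except 2.2% in EGFR-high vorinostat replicate 1. Both intermediate libraries thus carried transcripts of each population, and how this arose was not tested.

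The number 1 vorinostat libraries lay apart on the second component, at -23.1 for EGFR-low and -47.5 for EGFR-high cells. Mitochondrially encoded genes held 22.2% and 24.2% of their FPKM, against 7.27 to 18.6% in the other libraries of that experiment. Results on the 10 genes between populations in DMSO and vorinostat, and the counts of the lists, are therefore also given without these 4 libraries, an alternative chosen after seeing the data. Single genes of the lists are given with all libraries. None of those printed with a fold change changed its call between the populations without the 4. This does not cover CDKN1A, IER3 and MXD3 under vorinostat, whose calls without the 4 are not given here. Means of EGFR-low and EGFR-high DMSO cells include the intermediate libraries. With 2 libraries left in each group, the spread is then estimated over all groups together. The plot of the 12 libraries shows both patterns.

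**Figure D1:**
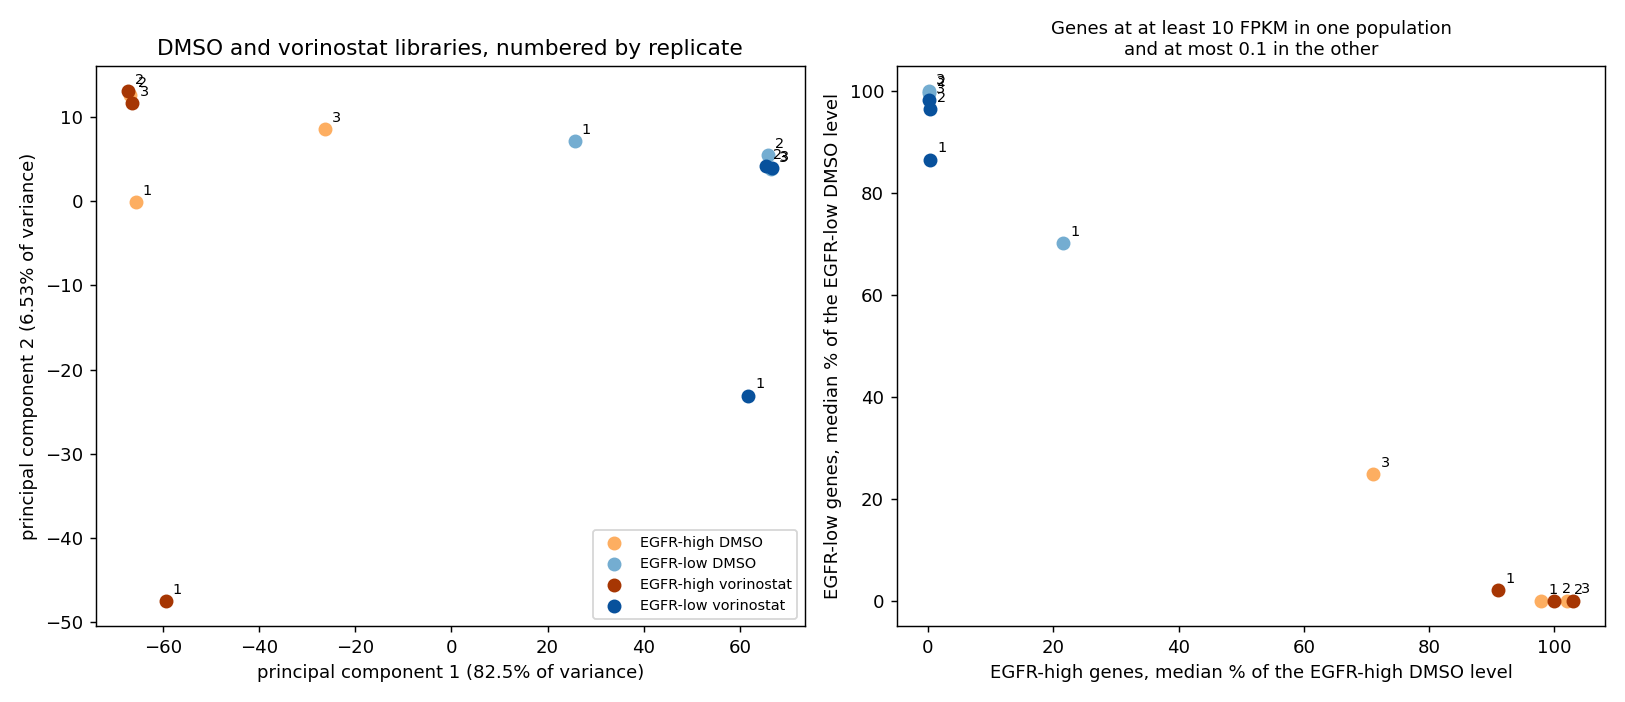
Left, the 12 DMSO and vorinostat libraries on principal components 1 and 2 of log2(FPKM + 1), numbered by replicate and coloured by group. Right, the median level in each library of the 31 EGFR-high genes (x axis, % of the EGFR-high DMSO level) and the 48 EGFR-low genes (y axis, % of the EGFR-low DMSO level). EGFR-low DMSO replicate 1 (21.6% and 70.2%) and EGFR-high DMSO replicate 3 (71.1% and 24.9%) lie between the populations.

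The EGFR-low DMSO cells were also less like their untreated counterparts in mean profile than the EGFR-high DMSO cells were. Across 11118 genes, which are not independent replicates, the mean profile of untreated EGFR-low cells correlated at r = 0.823 with EGFR-low DMSO cells and at r = 0.930 with EGFR-high DMSO cells. Untreated and DMSO EGFR-high profiles correlated at r = 0.957. The EGFR-low and EGFR-high profiles correlated at r = 0.964 in untreated cells and at r = 0.877 in DMSO. Among untreated libraries, parental replicates 1 and 2 correlated best with the EGFR-high replicates of the same number (r = 0.988 and 0.983), above the best value within their own group (0.976 and 0.941). EGFR-low replicate 2 correlated best with parental replicate 2 (0.965, against at most 0.938 in its own group). It lay at -39.2 on the second component of the untreated libraries (31.5% of variance), against 24.0 and 32.0 for the other EGFR-low libraries, so untreated results on FOSL1, CCND1 and MYC are also given without it. An EGFR-low library of one experiment is therefore not a repeat of one from the other.

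Per length of transcript, CCND1, FOSL1 and MYC were the most abundant of the 10 in parental cells, at means of 59.0, 49.7 and 48.1 FPKM, and these 3 do not differ beyond their spread. JUN (23.0), JUND (15.2) and FOSL2 (14.7) followed. JUNB averaged 5.73 FPKM with 11.3 in replicate 2 and 3.63 and 2.25 in the others, so its place was not fixed. FOS averaged 2.37, EGR1 0.593 and FOSB 0.204 FPKM. FOSL1 was thus the main FOS family transcript of these cells, far above FOS itself. In EGFR-low DMSO cells the order was different: MYC averaged 122 FPKM, CCND1 73.9, JUNB 73.4, JUND 37.4, EGR1 33.2 and FOSL1 28.7, with FOSL2 at 15.9 and JUN at 16.6.

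**Figure D2:**
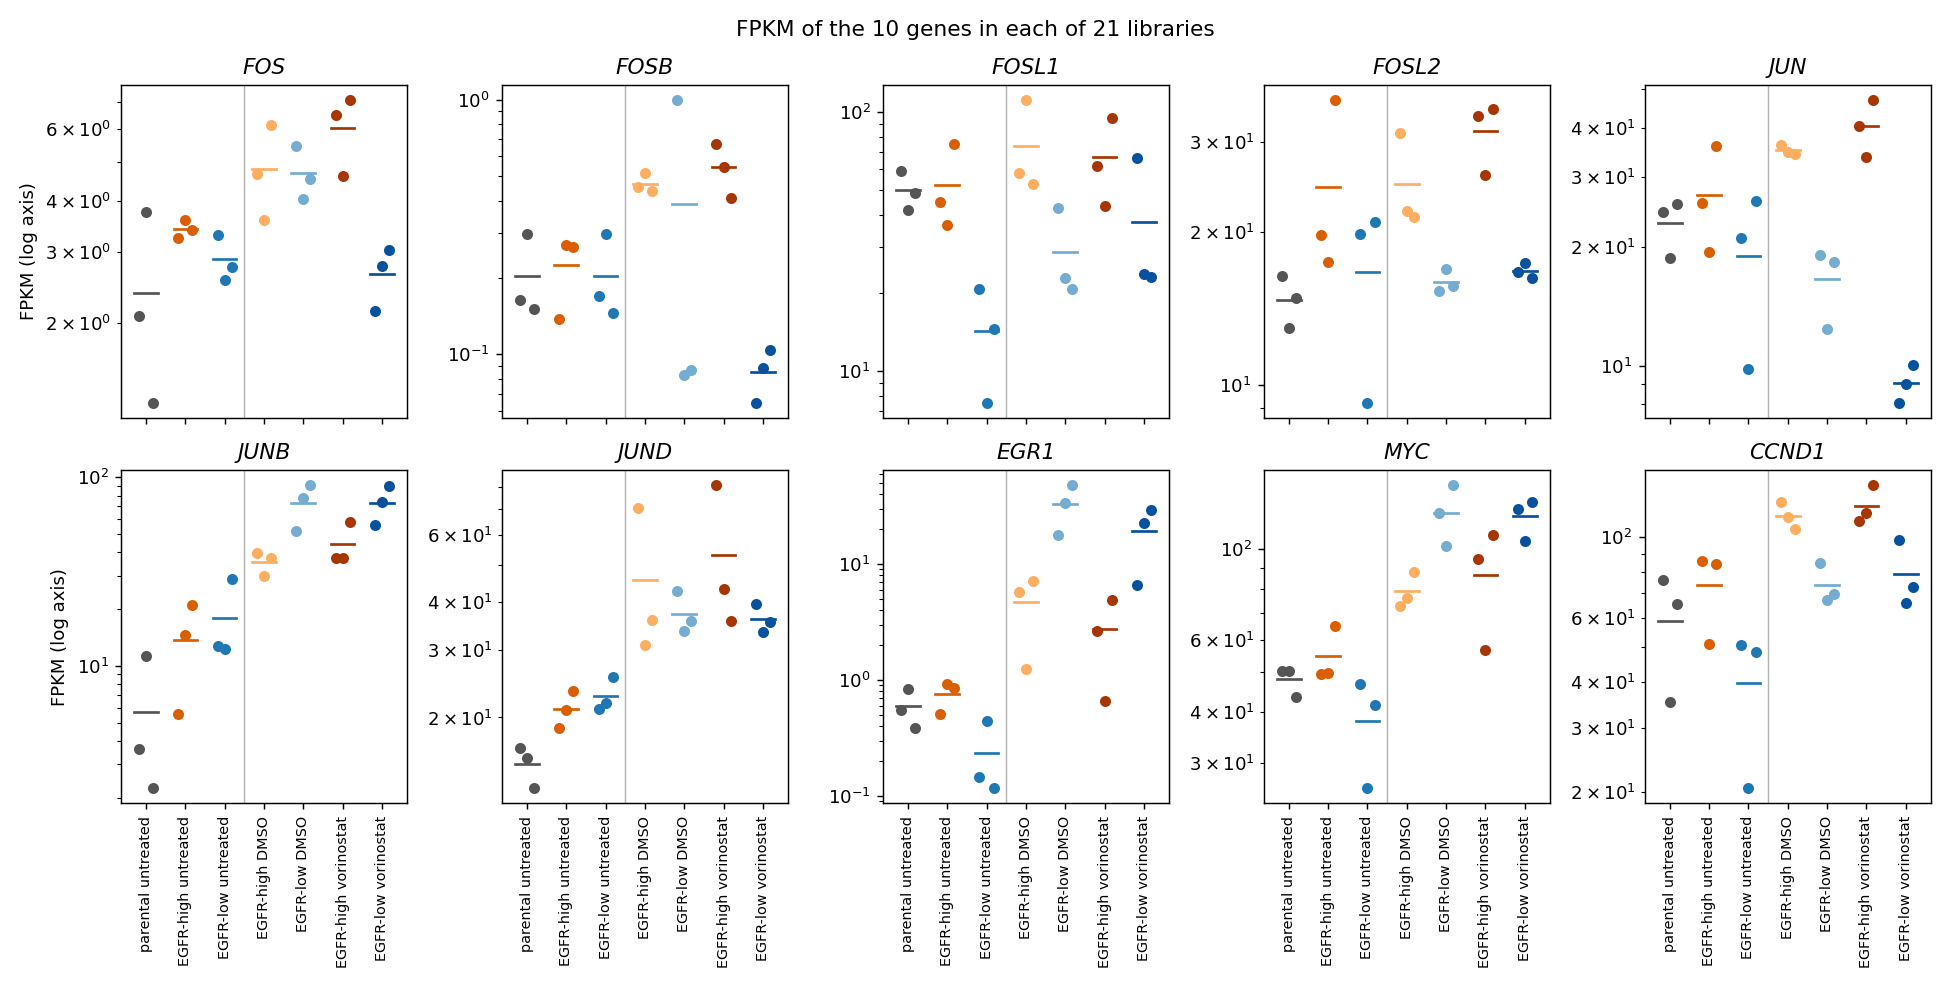
FPKM (y axis, log scale) of each of the 10 genes in the 21 libraries, by group (x axis). Points are replicates 1 to 3 from left to right, bars are group means, and the grey line separates the untreated from the vorinostat experiment. FOSL1 is lower in the untreated EGFR-low libraries (7.52 to 20.8 FPKM) than in the EGFR-high libraries (36.4 to 75.4), and EGR1 is higher in EGFR-low DMSO (18.0 to 47.8) than in EGFR-high DMSO (1.24 to 7.13).

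The promoters of EGR1 and JUND are shown because they hold motifs bound by factors at the end of the EGFR pathway or by AP-1-like dimers. RefSeq promoters (GRCh38.p14) were matched for 7 of the 10 genes; FOSL1, MYC and CCND1 have no entry. The 250 bases before the start were searched on both strands. Capitals mark the CArG box, the binding motif of the serum response factor, in EGR1 (chr5:138465229-138465478, plus strand), and TGACGTCA, the motif of cyclic AMP response elements, in JUND (chr19:18281623-18281872, minus strand).
EGR1: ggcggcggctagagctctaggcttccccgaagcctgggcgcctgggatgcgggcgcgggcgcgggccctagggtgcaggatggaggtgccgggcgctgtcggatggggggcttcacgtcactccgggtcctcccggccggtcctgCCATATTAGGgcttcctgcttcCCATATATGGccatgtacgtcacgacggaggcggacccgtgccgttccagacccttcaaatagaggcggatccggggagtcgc
JUND: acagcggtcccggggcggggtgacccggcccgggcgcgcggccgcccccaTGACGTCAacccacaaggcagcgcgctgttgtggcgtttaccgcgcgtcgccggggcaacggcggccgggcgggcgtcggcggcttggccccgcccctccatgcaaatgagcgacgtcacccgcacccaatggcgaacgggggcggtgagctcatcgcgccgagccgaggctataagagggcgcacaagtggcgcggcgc

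The EGR1 promoter holds 2 CArG boxes, 105 and 83 bases before the start, and 1.16% of 35114 promoters hold at least 1. In the window of FOS, FOSB, FOSL2, JUN, JUNB and JUND no CArG box was found. The JUND promoter holds 1 TGACGTCA, 200 bases before the start, a motif in 1.65% of promoters. TGANTCA, bound by AP-1, is in 6.57% of promoters, CACGTG, bound by MYC and MAX, in 6.35%, and GCGTGGGCG, bound by EGR1, in 0.721%. None of these 3 motifs is in the window of the 7 matched genes, which says only that these letters are not there.

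The first comparison asks how the transcription factors at the end of EGFR signalling differ between untreated cells sorted for low and high EGFR. FOSL1, a late AP-1 subunit kept up by sustained ERK signalling, fell in EGFR-low cells to 0.273 of the EGFR-high mean (n = 3 in each group). CCND1 and MYC were also lower in all 3 EGFR-low libraries than in any EGFR-high library, but did not pass the test. FOS, FOSL2, JUN, JUNB and JUND overlapped between the populations. In each same-numbered pair JUN was lower and JUND higher in EGFR-low cells. Neither was called by limma with the replicate block (adjusted p of 0.145 and 0.777). The share of all genes with the same direction in every pair is not given here, so nothing is read from these directions.

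FOSL1 was at 20.8, 7.52 and 14.5 FPKM in EGFR-low replicates 1 to 3, at 44.9, 36.4 and 75.4 in EGFR-high and at 59.1, 41.7 and 48.4 in parental cells. The 3 EGFR-low libraries were the lowest of the 9, and EGFR-high and parental cells overlapped. The log2 fold change of EGFR-low over EGFR-high cells was -1.84 ± 0.37 (SE; limma adjusted p = 0.0184). Fold changes are on the log2(FPKM + 1) scale, which understates those of genes with few FPKM. Leaving out EGFR-low replicate 3, EGFR-high replicate 1 or EGFR-high replicate 3 ended the call, with adjusted p of 0.0573, 0.0523 and 0.0881; over the other settings of the processing it ranged from 0.00666 to 0.0420. Without EGFR-low replicate 2 the fold change was -1.47 (adjusted p = 0.0477). FOSL1 was 1 of 8 genes tested that was called, against 3.81% of all 11305 genes tested (183 higher, 1.62%, and 248 lower, 2.19%). As this is RNA of whole cultures, fewer cells with a transcript and less of it in each cell cannot be told apart.

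CCND1 was at 50.6, 20.5 and 48.4 FPKM in EGFR-low replicates 1 to 3 and at 85.9, 50.8 and 84.5 in EGFR-high cells, and in parental cells at 76.1, 35.2 and 65.6. Replicate 2 was the lowest in each group, and the highest EGFR-low library lay just under the lowest EGFR-high library. On the log2 scale the change was -0.94 ± 0.41 with an adjusted p of 0.337, and -0.53 (adjusted p = 0.623) without EGFR-low replicate 2. With the replicate number as a block CCND1 was lower in EGFR-low cells, at an adjusted p of 0.0115. In that fit 2 of the 8 genes were called, against 8.54% of all genes tested (965 in place of 431).

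MYC was at 46.7, 26.1 and 41.6 FPKM in EGFR-low replicates 1 to 3, at 49.5, 49.9 and 65.0 in EGFR-high and at 50.3, 50.5 and 43.6 in parental cells. EGFR-low libraries lay below EGFR-high libraries without overlap and overlapped the parental ones. The log2 fold change against EGFR-high cells was -0.54 ± 0.27 (adjusted p = 0.426), and -0.30 (adjusted p = 0.699) without EGFR-low replicate 2.

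EGR1, an immediate early zinc finger factor, stayed under 1 FPKM in all 9 untreated libraries and was not tested under the filter. With no filter its log2 fold change of EGFR-low over EGFR-high cells was -0.51 (limma adjusted p = 0.115). It was at 0.145, 0.443 and 0.117 FPKM in EGFR-low, 0.508, 0.924 and 0.855 in EGFR-high and 0.555, 0.836 and 0.388 in parental replicates 1 to 3. All EGFR-low values were below all EGFR-high values, with replicate 2 the highest in each sorted group. FOSB, a further immediate early AP-1 subunit, ranged from 0.137 to 0.297 FPKM over the same libraries and was not tested. Of the 8 genes tested, 3 (FOSL1, MYC and CCND1) did not overlap between the populations, against 20.6% of all genes tested (9.39% above, 11.2% below), and the untested EGR1 makes 4. The exact two-sided permutation p of each was 0.1, the smallest that 3 against 3 libraries allow.

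Over the 8 genes tested the median log2 fold change was -0.54, beside -0.03 over all genes tested. Among 12 other AP-1 family genes, 8 were tested and 1 was lower. This was JDP2, which encodes a JUN partner that represses AP-1 genes, at 7.76 against 31.0 FPKM (-1.86 ± 0.22, adjusted p = 8.59e-04). Among 27 other immediate early genes, 18 were tested and 1 was lower, CYR61 (-1.20 ± 0.25, adjusted p = 0.0216), a secreted matrix protein. Its call ended without EGFR-low replicate 1, 2 or 3 (adjusted p of 0.107, 0.0575 and 0.0585) and without EGFR-high replicate 2 or 3 (0.103 and 0.0674). The medians of these lists were 0.02 and -1.62e-04.

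Of 19 known AP-1 targets 12 were tested and 1 was higher in EGFR-low cells. SPP1, which encodes osteopontin, averaged 458 against 97.3 FPKM (2.19 ± 0.39, adjusted p = 0.0101; 0.0550 without EGFR-high replicate 3). With median-of-ratios scaling or quantile normalization 3 of these targets were higher and 0 lower. With the replicate block 3 were higher and 1 lower. Over all genes these settings called, in that order, 192 higher and 260 lower, 206 and 278, and 435 and 530. In the cascade from EGFR to ERK and JNK, 1 of 22 genes was lower, EGFR itself (-2.23 ± 0.40, adjusted p = 0.0110; 0.0520 without EGFR-high replicate 3), and the block added 1 higher gene. The list medians were -0.22 and -0.01.

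None of 11 tested partners and antagonists of MYC, of 21 MYC targets or of 17 tested cyclin D partners and G1/S genes passed limma's test. With the block 1 MYC target was higher and 1 lower (GNL3, a nucleolar protein, -0.81, adjusted p = 0.0188 in place of 0.181), and 1 G1/S gene was higher. That gene was CDKN2B, an inhibitor of CDK4 and CDK6 (0.83, adjusted p = 0.0239 in place of 0.0560). The medians were -0.13, -0.34 and -0.03.

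Against parental cells, the question is which sorted population moved away from the starting line. FOSL1 fell in EGFR-low cells to 0.287 of the parental mean, while in EGFR-high cells it averaged 52.3 against 49.7 FPKM. JUNB and JUND, a pair of JUN subunits, were higher in every EGFR-low library than in any parental library, but did not pass the test.

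For FOSL1 the log2 fold change of EGFR-low over parental cells was -1.82 ± 0.37 (limma adjusted p = 0.0336), and FOSL1 was 1 of 8 genes called, against 1.60% of all genes tested (0.831% higher, 0.770% lower; 4.64% with the replicate block, under which it was again 1 of 8). The call ended without parental replicate 1 or 3 (adjusted p of 0.168 and 0.104) and without EGFR-low replicate 2 (-1.45, 0.0608) or 3 (0.113). It also ended with no filter on low values (0.0646), with a filter of 5 FPKM (0.0514) and with the 2 groups fitted alone (0.0511). The 8 genes had a median of -0.13, beside 0.06 over all genes.

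JUNB was at 12.7, 12.2 and 28.8 FPKM in EGFR-low, 5.53, 14.6 and 21.1 in EGFR-high and 3.63, 11.3 and 2.25 in parental replicates 1 to 3. Every EGFR-low library exceeded every parental library, and EGFR-high libraries overlapped both groups. The log2 fold change of EGFR-low over parental cells was 1.62 ± 0.56 (adjusted p = 0.219).

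JUND ranged from 21 to 25.5 FPKM in EGFR-low and from 18.8 to 23.4 in EGFR-high cells, above the 13.1 to 16.7 of parental cells. Its log2 fold changes over parental cells were 0.56 (adjusted p = 0.268) in EGFR-low and 0.45 (adjusted p = 0.507) in EGFR-high cells. In all, 3 genes did not overlap between EGFR-low and parental cells (FOSL1, JUNB and JUND), against 17.1% of genes tested (9.07% above, 8.02% below).

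Between EGFR-high and parental cells limma called 0 of the 8 genes, against 0.0708% of all genes (0.0619% higher, 0.00885% lower; 0 of 8 and 0.0796% with the block), and 0 of the 8 had an unadjusted p under 0.05. FOSL2 and JUND were the 2 genes that did not overlap, against 16.2% of genes tested (10.2% above, 6.02% below). FOSL2 ranged from 17.5 to 36.3 FPKM in EGFR-high cells and from 12.9 to 16.3 in parental cells (0.63, adjusted p = 0.516). Without EGFR-high replicate 3 its log2 fold change was 0.32. The median of the 8 genes was 0.40, beside 0.07 over all genes. These 3 untreated comparisons share their libraries.

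The other lists gave few calls against parental cells. With EGFR-low cells EGFR was the 1 gene lower of 22 in its cascade (-2.08 ± 0.40, adjusted p = 0.0261), and it lost the call without parental replicate 1 or 3 or any EGFR-low library (adjusted p from 0.0544 to 0.141), with no filter (0.0570) and with the compared groups alone (0.0529). With either sorted population, 0 genes were called among the AP-1 family, immediate early, MYC network, MYC target, G1/S and AP-1 target lists. With the block, which the numbers do not fully support here, EGFR-low against parental cells gave 1 lower AP-1 family gene, 2 lower MYC targets, and 1 higher and 2 lower AP-1 targets. Among the lower targets was CD44, an adhesion receptor (-1.34, adjusted p = 0.0260 in place of 0.173). JDP2, the AP-1 family gene with the largest change, had a log2 fold change of -0.88 (adjusted p = 0.0856) in EGFR-low and 0.97 (adjusted p = 0.303) in EGFR-high cells. In EGFR-low cells it was called with median-of-ratios scaling (0.0446), quantile normalization (0.0450), no filter (0.0413) and the block (0.0361).

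The second experiment asks the same question after 72 h in DMSO. There EGR1 and JUNB rose in EGFR-low cells, while FOSL1, FOSL2, JUN and CCND1 fell, and FOS and JUND overlapped. EGR1 averaged 33.2 FPKM in EGFR-low and 4.71 in EGFR-high cells, a ratio of 7.06, and JUN 16.6 against 35.1, a ratio of 0.473. MYC was higher by a ratio of 1.55, a call that ended in several settings. Differences between populations were common in this experiment, so these changes are read against those of all genes.

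Limma called 7 of the 9 genes tested, 3 higher and 4 lower, against 51.8% of all 12236 genes tested (3807 higher, 31.1%, and 2527 lower, 20.7%). With the replicate block it was again 7, against 55.5%. The 7 genes also did not overlap between the groups, against 69.3% of all genes (40.9% above, 28.4% below). The median log2 fold change of the 9 genes was -0.20, beside 0.12 over all genes; median-of-ratios scaling moved the latter to 0.01, with 3219 genes higher and 3183 lower. Without the 4 libraries that stand apart 6 of the 9 were called, 2 higher and 4 lower, and all genes gave 4654 higher and 3086 lower.

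Among the FOS subunits, FOSL1 was at 42.4, 22.9 and 20.7 FPKM in EGFR-low DMSO replicates 1 to 3 and at 58.2, 111 and 52.9 in EGFR-high DMSO. The intermediate EGFR-low replicate 1 was the highest of its group, and the groups did not overlap. The log2 fold change was -1.33 ± 0.44 (limma adjusted p = 0.0252). The call ended with no filter on low values (0.0523) and without EGFR-low replicate 2 or 3 or EGFR-high replicate 2 (0.0808, 0.0921 and 0.109). Without the 4 libraries FOSL1 was lower still, at -1.84 ± 0.36 (adjusted p = 0.00199).

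FOSL2 was at 15.3, 16.8 and 15.6 FPKM in EGFR-low and 31.2, 21.9 and 21.4 in EGFR-high DMSO replicates 1 to 3. EGFR-low libraries were close together and all lower (-0.59 ± 0.16, adjusted p = 0.00803; -0.66, adjusted p = 0.0143 without the 4 libraries). FOS itself was at 5.47, 4.04 and 4.53 against 4.65, 3.59 and 6.14 FPKM, overlapping fully (-0.01 ± 0.20, adjusted p = 0.959).

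FOSB stayed under 1 FPKM and was not tested. It was at 0.996 FPKM in EGFR-low DMSO replicate 1 and at 0.0829 and 0.0866 in replicates 2 and 3, against 0.455, 0.514 and 0.436 in EGFR-high DMSO. The intermediate library alone exceeded the EGFR-high libraries.

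Among the JUN subunits, JUN was at 19.1, 12.4 and 18.3 FPKM in EGFR-low and 36.1, 34.8 and 34.4 in EGFR-high DMSO replicates 1 to 3. The groups were far apart, and the EGFR-high libraries nearly equal. JUN fell in EGFR-low cells (-1.06 ± 0.17, adjusted p = 4.89e-04; -1.18, adjusted p = 9.10e-04 without the 4 libraries).

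JUNB moved the other way, at 51.7, 77.8 and 90.6 FPKM in EGFR-low against 39.4, 30.1 and 37.5 in EGFR-high DMSO replicates 1 to 3. The lowest EGFR-low library was the intermediate one. This was a log2 fold change of 0.99 ± 0.24 (adjusted p = 0.00548), or 1.26 (adjusted p = 9.93e-04) without the 4 libraries. JUND, the subunit least tied to growth signals, ranged from 33.6 to 42.7 and from 30.9 to 70.4 FPKM and was not called (-0.20, adjusted p = 0.617; -0.42, adjusted p = 0.258 without the 4 libraries).

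EGR1 was at 18.0, 34.0 and 47.8 FPKM in EGFR-low and 5.74, 1.24 and 7.13 in EGFR-high DMSO replicates 1 to 3. The intermediate EGFR-low library was the lowest of its group and the intermediate EGFR-high library the highest of its own, so the groups were farther apart without them. EGR1 rose by a log2 fold change of 2.68 ± 0.64 (adjusted p = 0.00462), and 3.41 ± 0.61 (adjusted p = 0.00117) without the 4 libraries. In untreated cells EGR1 lay under 1 FPKM with the opposite order, and the difference between the experiments was not tested.

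MYC was at 122, 102 and 143 FPKM in EGFR-low and 72.8, 76.2 and 88.0 in EGFR-high DMSO replicates 1 to 3. The groups did not overlap (0.62 ± 0.21, adjusted p = 0.0304). The call ended with median-of-ratios scaling (0.0875), with no filter (0.0515), without both intermediate libraries (0.69 ± 0.28, 0.0638) and without all 4 (0.69 ± 0.28, 0.0579). It also ended without EGFR-low replicate 1 or 3 (0.0615 and 0.117) and without EGFR-high replicate 1 or 2 (0.0911 and 0.0803). MYC was higher in EGFR-low cells in each of these settings.

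CCND1 was at 84.9, 67.2 and 69.7 FPKM in EGFR-low and 124, 114 and 105 in EGFR-high DMSO replicates 1 to 3. The 3 EGFR-low libraries were the lower ones, the intermediate library highest among them. CCND1 fell by 0.63 ± 0.16 on the log2 scale (adjusted p = 0.00618), and by 0.79 (adjusted p = 6.59e-04) without the 4 libraries.

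**Figure D3:**
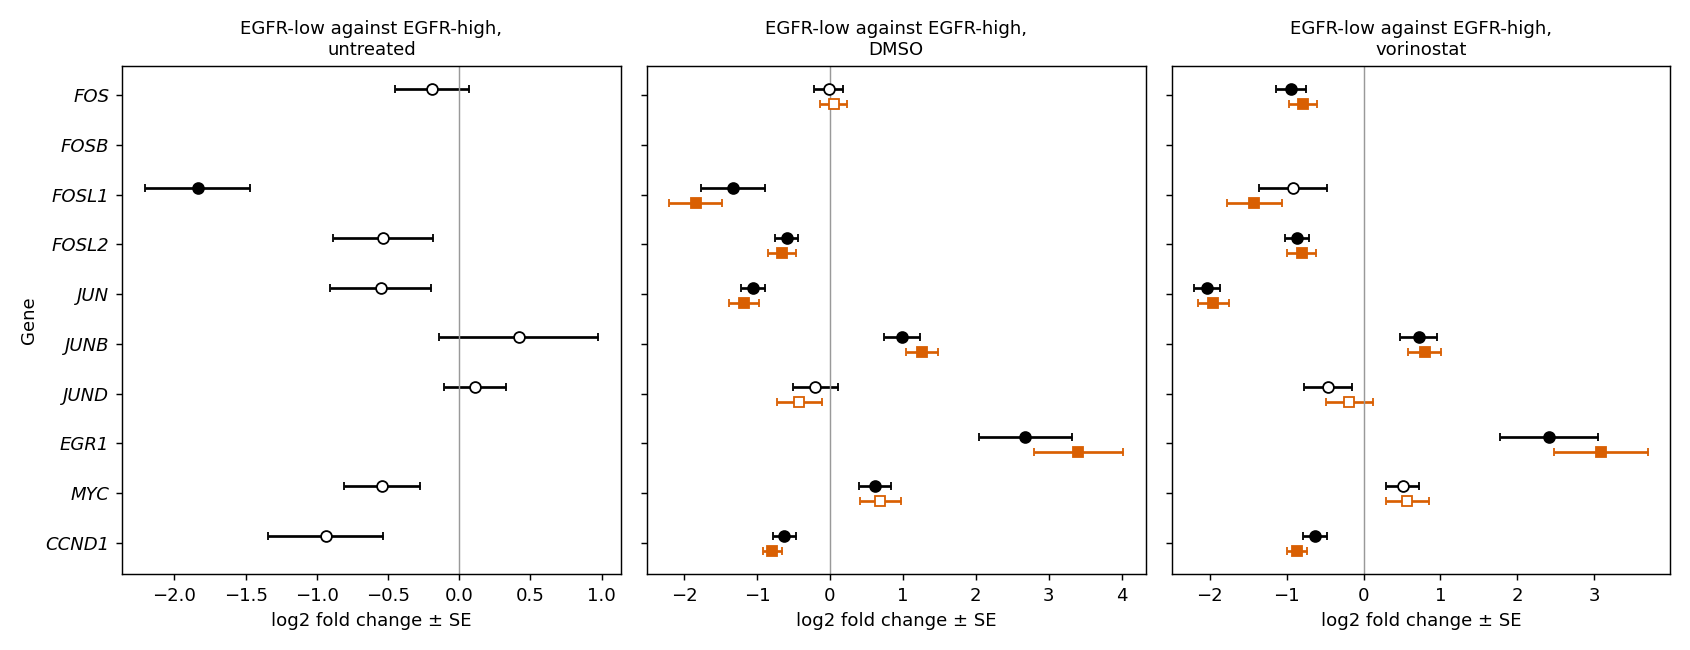
Log2 fold change (x axis, ± SE, on log2(FPKM + 1)) of EGFR-low over EGFR-high cells for each gene (y axis) in untreated, DMSO and vorinostat cells, each panel with its own scale. Black circles use all libraries, orange squares leave out the 4 libraries that stand apart, and filled symbols passed limma's test; FOSB, and EGR1 in untreated cells, were not tested. In DMSO, EGR1 (2.68) and JUN (-1.06) lie on opposite sides of 0.

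The lists below are read against the 51.8% of all genes called in DMSO (31.1% higher, 20.7% lower). The share called was 60.0% of AP-1 family genes, 47.8% of immediate early genes, 73.3% of AP-1 targets, 50% of the cascade, 46.2% of the MYC network, 33.3% of MYC targets and 61.1% of G1/S genes. Whether any of these differs from all genes was not tested. The filter takes all groups together, so a gene may enter through the population in which it is high. BATF3, KLF2 and CDKN1C reached 1 FPKM only in EGFR-low libraries, and MYCL in those and 1 EGFR-high library. Higher calls of these genes, here and under vorinostat, count in the lists but are not read as support for a rise. Of 10 tested AP-1 family genes 3 were higher and 3 lower, with a median of 0.31 (2 higher and 4 lower with median-of-ratios scaling, 0 and 3 with quantile normalization). BATF, which pairs with JUN proteins, averaged 1.39 against 18.9 FPKM (-3.37 ± 0.45, adjusted p = 3.27e-04). In EGFR-low vorinostat cells it averaged 0.0570 FPKM. It may thus have entered the filter through EGFR-high libraries, and its lower call is not read as support for a fall. MAFF (-1.28 ± 0.33) and JDP2 (-1.07 ± 0.28) fell. BATF3 averaged 0.934 against 0.164 FPKM (0.74 ± 0.17, and adjusted p = 0.0553 with quantile normalization). Of 23 tested immediate early genes 7 were higher and 4 lower, with a median of 0.19. NAB2, a corepressor of EGR1, rose (1.68 ± 0.30, adjusted p = 9.72e-04), as did GADD45B (1.53 ± 0.29), a stress response gene. KLF2 averaged 2.29 against 0.608 FPKM (1.05 ± 0.17). KLF4 fell (-1.12 ± 0.30). Without the 4 libraries the counts were 3 higher and 3 lower, and 9 higher and 5 lower.

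Of 15 tested AP-1 targets 4 were higher and 7 lower in EGFR-low DMSO cells (5 and 7 without the 4 libraries), with a median of -0.01 that turned to 0.06 without them. AXL, a receptor tyrosine kinase, averaged 3.78 against 44.9 FPKM (-4.07 ± 0.69, adjusted p = 6.55e-04). SPP1 averaged 5.01 against 59.7 (-4.00 ± 0.65), and HBEGF, an EGFR ligand, 2.78 against 21.7 (-2.64 ± 0.52). MMP13, a collagenase, averaged 12 against 1.58 (2.78 ± 0.60, adjusted p = 0.00268). Under vorinostat AXL averaged 0.452 FPKM in EGFR-low and MMP13 0.208 in EGFR-high cells. Both may thus have entered the filter through the population in which they were high. Their calls are not read as support for a change. SPP1 thus lay on the opposite side from untreated cells, a difference that was not tested. Of the 22 cascade genes 7 were higher and 4 lower (8 and 4 without the 4 libraries), with a median of 0.13. EGFR (-2.13 ± 0.35) and NRAS (-1.14 ± 0.15) fell, and RPS6KA3 (1.5 ± 0.20), a kinase activated by ERK, and ARAF (1.00 ± 0.18) rose.

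In the MYC network 6 of 13 tested genes were higher and 0 lower in EGFR-low DMSO cells, with a median of 0.33 (6 higher and 1 lower with median-of-ratios scaling or quantile normalization). MAX, the partner of MYC, averaged 98.1 against 52.2 FPKM (0.90 ± 0.23, adjusted p = 0.00586). MLXIPL (1.5 ± 0.25) and MLX (0.75 ± 0.17) also rose, and MYCL averaged 1.49 against 0.528 FPKM (0.72 ± 0.17). Of 21 MYC targets 6 were higher and 1 lower, with a median of 0.12 that turned to -0.01, with 5 higher and 3 lower, under median-of-ratios scaling. RRS1, a ribosome assembly factor, averaged 108 against 27.3 FPKM (2.03 ± 0.29, adjusted p = 3.35e-04), and SRM (0.85 ± 0.21) and NOLC1 (0.84 ± 0.18) rose less. FBL, the nucleolar fibrillarin, fell (-0.66 ± 0.13). Without the 4 libraries the counts were 6 and 0, and 6 and 2.

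Among 18 tested cyclin D partners and G1/S genes 6 were higher and 5 lower, with a median of 0.33 (4 and 5 with median-of-ratios scaling, 7 and 4 without the 4 libraries). Inhibitors of cyclin-dependent kinases went both ways. CDKN2A (-1.27 ± 0.16, adjusted p = 3.27e-04) and CDKN2B (-1.63 ± 0.39) fell. CDKN1C, tested through its EGFR-low level, averaged 2.83 against 0.411 FPKM (1.47 ± 0.20). CDKN1A averaged 18.7 against 5.24 FPKM (1.77 ± 0.62, adjusted p = 0.0305). Its call ended with no filter (0.0623), with median-of-ratios scaling (0.0517), without any EGFR-low library (0.0569, 0.0651 and 0.0782) and without EGFR-high replicate 1 or 2 (0.0923 and 0.103).

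**Figure D4:**
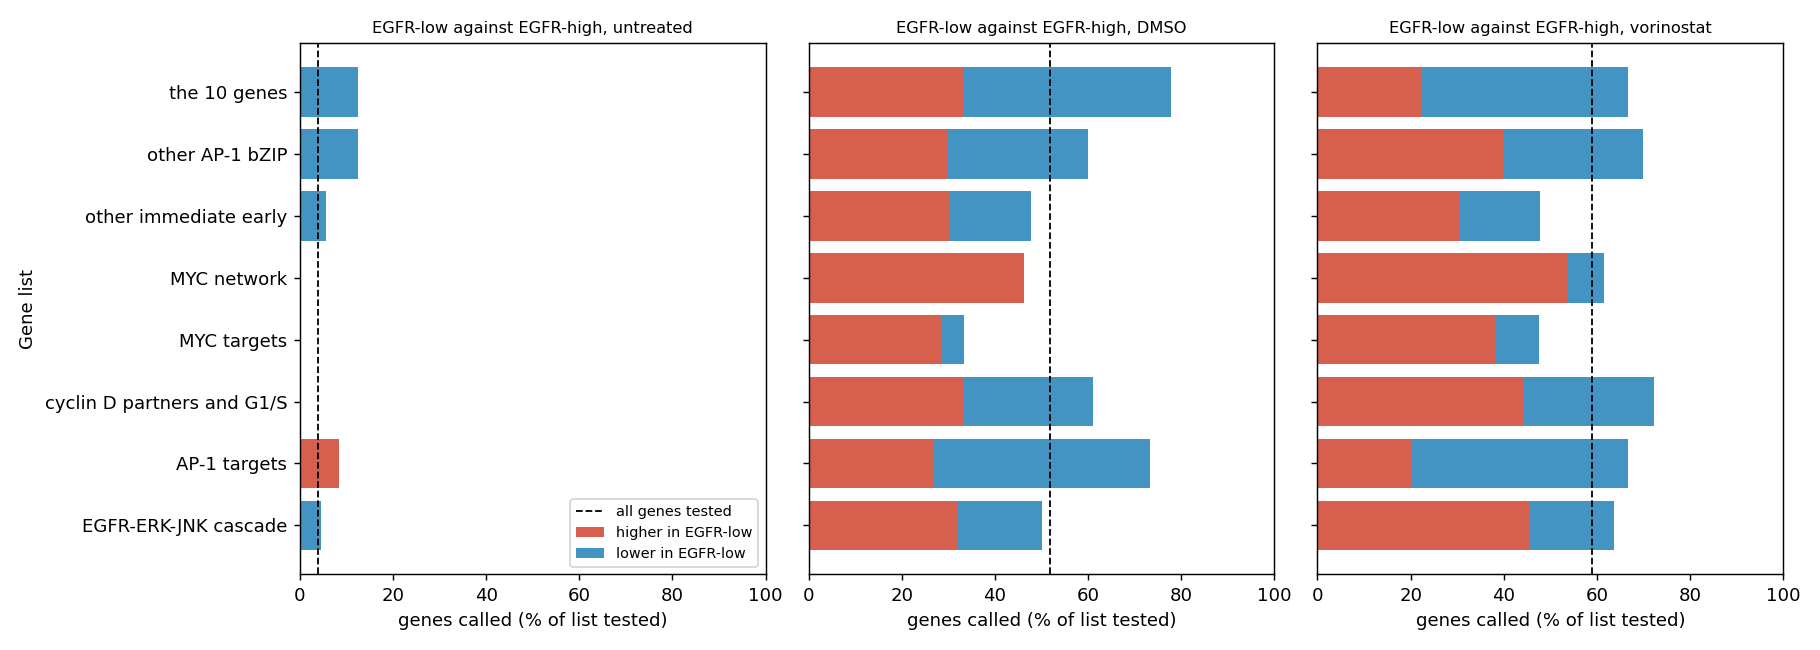
Share of the tested genes of each list (y axis) that limma called higher (red) or lower (blue) in EGFR-low cells (x axis, %), in untreated, DMSO and vorinostat cells. The dashed line is the share of all genes tested, at 3.81%, 51.8% and 59.0%.

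Under vorinostat, JUN fell in EGFR-low cells to 9.04 FPKM from 40.4 in EGFR-high cells, a ratio of 0.224, and FOS fell to a ratio of 0.438. FOSL2 and CCND1 fell as well, and EGR1 (ratio 7.09) and JUNB rose. MYC, FOSL1 and JUND did not pass the test. The comparison shows what separated the populations when both received the drug.

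Limma called 6 of the 9 genes, 2 higher and 4 lower, against 59.0% of all genes tested (4427 higher, 36.2%, and 2795 lower, 22.8%). With median-of-ratios scaling JUNB lost its call, leaving 1 higher and 4 lower, and all genes split into 3656 higher and 3584 lower as their median moved from 0.16 to 0.01. The median of the 9 genes was -0.63. With the replicate block 7 were called, MYC being added, against 62.4% of all genes. Without the 4 libraries 7 were called, FOSL1 being added, and all genes gave 4510 higher and 3180 lower. Of the 9 genes tested, 5 did not overlap between the groups (FOS, FOSL2, JUN, EGR1 and CCND1), against 60.8% of all genes tested (37.3% above, 23.5% below), and the untested FOSB makes 6.

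FOS was at 2.15, 2.77 and 3.04 FPKM in EGFR-low and 6.49, 4.60 and 7.08 in EGFR-high vorinostat replicates 1 to 3. Every EGFR-low library was lower (-0.94 ± 0.20, adjusted p = 0.00170; -0.79, adjusted p = 0.00558 without the 4 libraries). FOSB was at 0.0645, 0.0884 and 0.104 against 0.670, 0.545 and 0.411 FPKM, low in every EGFR-low library (ratio of means 0.158). It was not tested under the filter. With no filter its log2 fold change was -0.50 (limma adjusted p = 0.0607).

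FOSL1 was at 66.3, 23.6 and 23.1 FPKM in EGFR-low and 62.1, 43.5 and 94.5 in EGFR-high vorinostat replicates 1 to 3. EGFR-low replicate 1 was higher than 2 of the EGFR-high libraries, and the groups overlapped (-0.91 ± 0.44, adjusted p = 0.0950). FOSL1 was called without EGFR-low replicate 1 (-1.40, adjusted p = 0.0116), without both number 1 libraries (adjusted p = 0.0222) and without the 4 libraries (-1.42, adjusted p = 0.00800). FOSL2 ranged from 16.2 to 17.4 and from 25.9 to 34.9 FPKM (-0.86 ± 0.16, adjusted p = 6.09e-04; -0.80, adjusted p = 0.00545 without the 4 libraries).

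JUN was at 8.07, 9.0 and 10.0 FPKM in EGFR-low and 40.4, 33.7 and 47.0 in EGFR-high vorinostat replicates 1 to 3. Of the 9 genes tested, none fell by so much in this comparison on the log2(FPKM + 1) scale (-2.04 ± 0.17, adjusted p = 3.82e-05; -1.96, adjusted p = 4.12e-05 without the 4 libraries). Every EGFR-low library was far below every EGFR-high library.

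JUNB was at 55.5, 73.9 and 90.4 FPKM in EGFR-low and 37.4, 37.5 and 58.1 in EGFR-high vorinostat replicates 1 to 3, so the groups overlapped. It rose by the test (0.72 ± 0.24, adjusted p = 0.0247; 0.0118 without the 4 libraries). Median-of-ratios scaling (0.0595) and leaving out EGFR-low replicate 2 or 3 (0.0635 and 0.103) or EGFR-high replicate 1 or 2 (0.0730 and 0.0822) ended the call. JUND ranged from 33.4 to 39.6 and from 35.8 to 80.7 FPKM (-0.46, adjusted p = 0.226; -0.18, adjusted p = 0.619 without the 4 libraries).

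EGR1 was at 6.58, 22.5 and 29.1 FPKM in EGFR-low and 2.65, 0.653 and 4.90 in EGFR-high vorinostat replicates 1 to 3. The number 1 EGFR-low library was the lowest of its group and still above all EGFR-high libraries. EGR1 rose by 2.41 ± 0.64 on the log2 scale (adjusted p = 0.00678), and by 3.09 (adjusted p = 0.00208) without the 4 libraries.

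MYC was at 126, 105 and 130 FPKM in EGFR-low and 94.8, 56.8 and 108 in EGFR-high vorinostat replicates 1 to 3. EGFR-low replicate 2 lay under EGFR-high replicate 3, so the groups overlapped (0.51 ± 0.21, adjusted p = 0.0575). With the replicate block MYC was called higher, at an adjusted p of 0.0120. It was also called without EGFR-high replicate 1 or 3 (0.0478 and 0.0183). Without EGFR-high replicate 2 its log2 fold change was 0.24. Over single libraries left out the adjusted p reached 0.236. Without the 4 libraries the adjusted p was 0.107.

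CCND1 was at 98.0, 66.0 and 72.7 FPKM in EGFR-low and 111, 116 and 138 in EGFR-high vorinostat replicates 1 to 3. EGFR-low replicate 1 was the highest of its group and below all EGFR-high libraries. The log2 fold change was -0.63 ± 0.16 (adjusted p = 0.00474), and -0.86 (adjusted p = 3.87e-04) without the 4 libraries.

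The share of each list called under vorinostat stands beside 59.0% of all genes. It was 70.0% of AP-1 family genes, 47.8% of immediate early genes, 66.7% of AP-1 targets, 61.5% of the MYC network, 47.6% of MYC targets, 72.2% of G1/S genes and 63.6% of the cascade. Around AP-1, 4 of 10 tested family genes were higher and 3 lower under vorinostat (median 0.26; 3 and 4 with either other scaling, 3 and 3 without the 4 libraries). BATF averaged 0.0570 against 23.0 FPKM (-4.50 ± 0.45, adjusted p = 3.82e-05), and MAFF (-1.72 ± 0.33) and JDP2 (-1.37 ± 0.28) fell. Of 23 immediate early genes 7 were higher and 4 lower (8 and 5 without the 4 libraries), with a median of -0.12 that turned to 0.09 without them. NAB2 rose (1.31 ± 0.30), and KLF4 (-1.43 ± 0.30) and ZFP36 (-1.30 ± 0.29), which encodes an RNA decay factor, fell. IER3 was also called lower, with overlapping groups (-1.33 ± 0.51, adjusted p = 0.0397). Of 15 AP-1 targets 3 were higher and 7 lower (5 and 7 without the 4 libraries), with a median of -0.28. SPP1 (-4.94 ± 0.65) and HBEGF (-3.65 ± 0.52) fell, AXL was lower (-4.47 ± 0.69), and MMP13 averaged 17.1 against 0.208 FPKM (3.78 ± 0.60). BATF lay under 1 FPKM in EGFR-low and MMP13 in EGFR-high vorinostat libraries, so each was tested through its level in other groups. The calls of BATF, MMP13 and AXL are not read as support for a change.

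In the MYC network 7 of 13 genes were higher and 1 lower under vorinostat (median 0.54), and 5 and 1 without the 4 libraries. MLXIPL (2.06 ± 0.25, adjusted p = 5.27e-05), MLX (0.91 ± 0.17) and MAX (0.90 ± 0.23) were among those that rose. MXD3 was also called higher (0.87 ± 0.28, adjusted p = 0.01865). Of 21 MYC targets 8 were higher and 2 lower (median 0.23; 7 and 1 without the 4 libraries). RRS1 rose (2.25 ± 0.29), and NOLC1 (1.20 ± 0.18) and SRM (1.06 ± 0.21) rose less, while FBL fell (-0.72 ± 0.13). Of 18 G1/S genes 8 were higher and 5 lower (median 0.42; 6 and 6 with either other scaling, 8 and 6 without the 4 libraries). CDKN2C rose (1.32 ± 0.25), CDKN1C was higher (1.26 ± 0.20), and CDKN2B fell (-2.18 ± 0.39). CDKN1A was also called higher, with overlapping groups (1.67 ± 0.62, adjusted p = 0.0351). Of the 22 cascade genes 10 were higher and 4 lower (median 0.27; 6 and 7 with median-of-ratios scaling, 8 and 7 with quantile normalization, 11 and 5 without the 4 libraries). EGFR (-3.09 ± 0.35) and NRAS (-1.26 ± 0.15) fell, and RPS6KA3 (1.51 ± 0.20) and ARAF (1.40 ± 0.18) rose.

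Some epithelial markers also differed between the populations. In untreated cells 0 of 6 were called, and 1 with the replicate block: KRT8 averaged 704 FPKM in EGFR-low and 1139 in EGFR-high cells without overlap (limma adjusted p = 0.365, and 0.0486 with the block). In EGFR-low against EGFR-high cells 66.7% were called in DMSO and 83.3% under vorinostat, beside 51.8% and 59.0% of all genes. These were 3 of 6 lower and 1 higher in DMSO (3 and 2 with quantile normalization), and 3 lower and 2 higher under vorinostat (3 and 1 with median-of-ratios scaling or without the 4 libraries). KRT8 averaged 279 against 765 FPKM in DMSO (-1.46 ± 0.24, adjusted p = 6.13e-04) and CDH1 127 against 61.6 (1.06 ± 0.17, adjusted p = 4.62e-04). The summed epithelial level was 1610 to 1860 FPKM in EGFR-low DMSO, 2680 to 3210 in EGFR-high DMSO, 1550 to 1750 in EGFR-low vorinostat and 2740 to 3630 in EGFR-high vorinostat libraries. Their part in the results was not tested.

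Vorinostat against DMSO was compared within each population to see what the drug did to these genes. In EGFR-low cells JUN and FOS were lower in every drug-treated library than in any DMSO library, at 0.544 and 0.567 of the DMSO mean, yet neither passed the test. In EGFR-high cells every member overlapped between drug and vehicle.

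In EGFR-low cells limma called 0 of the 9 genes, against 0% of all 12236 genes, where 115 had an unadjusted p under 0.05. At that unadjusted level there were 2 of the 9, FOS (-0.64 ± 0.20, unadjusted p = 0.00793) and JUN (-0.79 ± 0.17, unadjusted p = 5.33e-04), both with a limma adjusted p of 1.00. With those 4 libraries left out these were -0.43 ± 0.19 for FOS and -0.62 ± 0.20 for JUN, the intermediate DMSO replicate 1 being the highest DMSO library for both. JUN was at 8.07 to 10.0 FPKM under vorinostat and 12.4 to 19.1 in DMSO, and FOS at 2.15 to 3.04 and 4.04 to 5.47. These were the 2 genes whose groups did not overlap, against 9.46% of genes tested (3.78% above, 5.69% below), each at the floor of 0.1 of the exact two-sided permutation test. EGR1 averaged 19.4 and 33.2 FPKM with overlap (-0.87 ± 0.64), and MYC 120 and 122. In each same-numbered pair EGR1 and JUND were also lower, and FOSL1 and FOSL2 higher, under vorinostat. For JUND the means were nearly equal, at 36.2 and 37.4 FPKM (-0.04 ± 0.31). The share of all genes with the same direction in every pair is not given here, so nothing is read from these directions. The block fit called 0 of the 9 genes. The median of the 9 genes was -0.02, beside -0.03 over all genes.

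In EGFR-high cells limma called 0 of the 9 genes, against 0% of all genes, where 409 had an unadjusted p under 0.05; of the 9, 0 did. No member was without overlap between the groups, against 5.33% of genes tested (2.25% above, 3.08% below). FOSL2 was at 31.5 against 24.8 FPKM (0.34 ± 0.16, adjusted p = 0.940; 0.19 ± 0.19 without the 4 libraries). With those left out, FOS was at 0.40 ± 0.19 and JUNB at 0.43 ± 0.22, both with an adjusted p of 0.996. The median of the 9 genes was 0.18, beside -0.06 over all genes.

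The difference between the populations in their change under vorinostat was tested as an interaction. Limma called 0 of the 9 genes and 0% of all genes, 215 of which had an unadjusted p under 0.05. The 2 members under that level were JUN (-0.98 ± 0.24, unadjusted p = 0.00150) and FOS (-0.93 ± 0.28, unadjusted p = 0.00667), each with an adjusted p of 0.999. Without the 4 libraries the estimates were -0.78 ± 0.29 for JUN and -0.84 ± 0.26 for FOS. A p above the threshold does not show that the populations respond alike. None of the AP-1, immediate early, MYC, G1/S, AP-1 target or cascade lists had a called gene in these 3 comparisons by limma. The comparisons share the DMSO and vorinostat libraries with those between populations.

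Last, the 8 genes tested in both experiments were compared with each other over the 21 libraries, each centred on its experiment, and FOSL1, CCND1 and MYC also with all genes. These values of Pearson's r describe the pattern only, since the 12 libraries of the vorinostat experiment fall into clusters by population. CCND1 varied most like FOSL1 (r = 0.831), FOSL2 (0.771) and JUN (0.731), and JUNB ran against FOSL1 (-0.524). Over 11118 genes tested in both experiments, the pattern of FOSL1 was most like those of PRNP (r = 0.924), G0S2 (0.904) and NRARP (0.872). For CCND1 these were WWC1 (0.965), FAM118A (0.923) and PTPN1 (0.918). For MYC they were H1F0 (0.880), NOP16 (0.853) and CTC1 (0.852). EGR1 and FOSB were not tested in untreated cells and have no such value. PRNP, which encodes the prion protein, ranged from 50.8 to 57.3 FPKM in untreated EGFR-low and from 133 to 174 in untreated EGFR-high cells, and from 82.7 to 115 and 143 to 221 in DMSO.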

How the data were processed

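Bulk poly(A) RNA-seq of 21 PC-9 libraries was used, 9 untreated and 12 from the vorinostat experiment. Per the labels, the authors processed the reads with STAR 2.5.1b, Cufflinks 2.2.1 and DESeq2 1.10.1 on hg19. The labels do not tie the deposited values to one of these tools. The deposited values carry Cuff in their names, as in Cufflinks, and are taken here as FPKM. Their unit, FPKM, is inferred from fractional values and library sums, although the files are named as counts. Strand is not stated, so antisense partners cannot be told apart, and depth is known only as a ratio between libraries. Values were analysed as log2(FPKM + 1) with limma 3.58.1 in R 4.3.3 (mean-variance trend), each experiment fitted apart on all its groups, over genes that reach 1 FPKM in 3 libraries or more. This kept 11305 and 12236 genes, with 8 and 9 of the 10. Calls have a Benjamini-Hochberg adjusted p under 0.05 over all genes tested. The scripts were tested on simulated data. Exact two-sided permutation tests of 3 against 3 libraries cannot go under 0.1. Figures used Python 3.11.15 and matplotlib 3.10.9.

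Members and lists were chosen with earlier results of these data known. Named are the 10 genes and EGFR; from each list and comparison up to 4 called genes with the largest absolute log2 fold change, or the largest change where none was called (shown in part); and the 3 genes most like FOSL1, MYC and CCND1. BATF, SPP1 and other list genes follow this rule.

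Replicates are independent experiments. The numbers were taken as pairs where the deviations from the group means of each same-numbered pair correlated above 0.1. This held between EGFR-low and EGFR-high cells untreated (0.343, 0.730 and 0.689) and under vorinostat (0.353, 0.351 and 0.163), and for vorinostat against DMSO in EGFR-low cells (0.267, 0.302 and 0.329). Alternatives were pseudocounts of 0.1 and 5, other filters and scalings, the compared groups alone, a replicate block, no trend, and each library left out. Leaving out both intermediate DMSO libraries, both number 1 vorinostat libraries, or all 4 was chosen after seeing the data.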

Additional observations from a re-analysis of the deposited data

Results flagged for a closer look

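For 2 genes, every EGFR-low library lay below every EGFR-high library in untreated cells and above every EGFR-high library in DMSO. Of all genes tested, 11.2% lay below in untreated cells and 40.9% above in DMSO. The share that did both is not given here, so the count of 2 cannot be set against it. The EGFR-low over EGFR-high ratio of mean FPKM was 0.309 untreated and 7.06 in DMSO for EGR1, and 0.696 untreated and 1.55 in DMSO for MYC. The difference between the experiments was not tested, since they were deposited separately and differ in time, vehicle and population profile. EGR1 was under 1 FPKM in all untreated libraries, and the MYC call in DMSO ended without the intermediate libraries, where its log2 fold change was 0.69 ± 0.28 in place of 0.62 ± 0.21.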

How the results depend on the processing

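Of 1212 values of the 10 genes recomputed under the alternatives, 34 changed their call and 56 changed sign, and none of those that changed sign belonged to a called gene. The cause of the changes below was not tested, apart from the fewer libraries or other genes that a setting implies. How far depth limits the genes under 1 FPKM, FOSB and untreated EGR1, was not tested.

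Of 8 genes tested in untreated EGFR-low against EGFR-high cells, 1 was called, 2 with the replicate block and 0 to 1 without single libraries. Against parental cells it was 1, and 0 with no filter, 0 with a filter of 5 FPKM, 0 with the compared groups alone and 0 to 1 without single libraries. Besides CCND1 and MYC, the block changed no call of the 10 genes in a paired comparison. Elsewhere the numbers did not meet the rule for pairs (2, 2, 2 and 1 of 3 pairs correlated above 0.1, up to 0.757 in EGFR-high against parental cells), and the block left 7 genes called in DMSO and 1 in EGFR-low against parental cells.

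All genes called in untreated EGFR-low against EGFR-high cells numbered 431, 660 with no filter, 206 with a filter of 5 FPKM, 965 with the block and down to 205 without a single library. For EGFR-low against parental cells they numbered 181, 331, 82 and 525, with 107 for the compared groups alone and down to 67 without a single library. For EGFR-high against parental cells they numbered 8, 15 with no filter, 3 with a filter of 5 FPKM, 2 for the compared groups alone and down to 2 without a single library. With no filter, 1 gene in place of 0 was called for vorinostat in EGFR-low cells and 1 for the interaction.

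Signs that changed without a call, as log2 fold changes, were these. FOSL1 in EGFR-high against parental cells was -0.0863 with median-of-ratios scaling. FOS in EGFR-low against EGFR-high DMSO cells was 0.0501 without both intermediate libraries and 0.0501 without all 4. For vorinostat in EGFR-low cells, JUNB was -0.22 and JUND 0.0560 without the intermediate libraries, JUNB -0.0383 without all 4, and FOSL1 -0.21 and CCND1 -0.0850 without the number 1 vorinostat libraries. For vorinostat in EGFR-high cells, JUND was -0.12 and MYC -0.00346 without the number 1 libraries, and JUND -0.24 without all 4. For the interaction, CCND1 was 0.15 without the intermediate libraries, FOSL1 -0.0888, JUND 0.0133 and EGR1 0.41 without the number 1 libraries, and JUND 0.23 without all 4.

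Leaving out 1 library at a time gave these ranges. Untreated, JUNB ran from -0.0856 to 0.79 in EGFR-low against EGFR-high cells. Against parental cells, FOSL2 ran from -0.10 to 0.45 and JUN from -0.62 to 0.0408 in EGFR-low cells, and FOSL1 from -0.28 to 0.24 and JUN from -0.0195 to 0.41 in EGFR-high cells. In EGFR-low against EGFR-high DMSO cells, FOS ran from -0.17 to 0.15 and JUND from -0.43 to 0.15. For vorinostat in EGFR-low cells the ranges were FOSL1 -0.21 to 0.59, JUNB -0.22 to 0.19, JUND -0.11 to 0.0560, MYC -0.14 to 0.10 and CCND1 -0.0850 to 0.20. In EGFR-high cells they were FOSL1 -0.42 to 0.19, JUND -0.12 to 0.57, MYC -0.10 to 0.36 and CCND1 -0.00986 to 0.15. For the interaction they were FOSL1 -0.0731 to 0.73, JUND -0.61 to 0.0778, EGR1 -0.77 to 0.33, MYC -0.38 to 0.0800 and CCND1 -0.17 to 0.11.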
